A study of Homo sapiens with 27 samples.

Results

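ARID1A-null 293T cells that carried either the V2084D form or the wild-type form of ARID1A were compared by RNA sequencing, 3 libraries against 3, and these 6 libraries are part of a series of 27. 293T is a human embryonic kidney line that carries the SV40 large T antigen. The endogenous ARID1A gene had been knocked out in both groups, and each group then stably expressed a Flag-tagged ARID1A from a lentiviral vector, either WT or V2084D. Of the 67130 genes of the table, 21110 had at least 10 counts in at least 3 of the 6 libraries and were tested. The other 293T groups, used here only for levels, were knockout cells with no added ARID1A (KO) and knockout cells with the G2087E, G2087R or K2025E form. A second set of knockout cells labelled Huh7, a hepatocellular carcinoma line, carried the same WT and V2084D forms. The labels name neither the promoter of the vector nor whether a group was 1 clone or a pool. Nor do they state that the replicates were grown as separate cultures, so the p-values speak only to the spread among these libraries, which may be technical.

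ARID1A is the large DNA-binding subunit that defines the BAF form of the SWI/SNF chromatin remodelling complex, which slides and evicts nucleosomes at enhancers and promoters. V2084D replaces a valine near the carboxyl end of the protein with aspartate. Much of what follows concerns the heat shock response. In that response unfolded protein releases the transcription factor HSF1 from chaperones, and HSF1 then binds inverted repeats of the letters GAA, called heat shock elements, upstream of chaperone genes. The HSP70 chaperones made in this way hold unfolded proteins with the help of HSP40 partners, and STUB1 (also called CHIP), which the study knocked down in its other line, is the ubiquitin ligase that works with HSP70.

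The sequences shown here are the site of the amino acid change and the promoters of the 3 named protein-coding genes that rose. In the transcript ARID1A-201, annotated in GENCODE 29, the valine that V2084D replaces is encoded in exon 20 of 20 at chr1:26780148-26780150 of GRCh38, on the plus strand. The surrounding reference sequence, chr1:26780118-26780180, has the codon in capitals and is the wild-type reading, not that of the vector.
ARID1A codon at V2084D: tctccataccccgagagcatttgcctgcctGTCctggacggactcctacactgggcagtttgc

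The upstream sequences of 3 inducible HSP70 genes come from RefSeq on GRCh38.p14, plus strand, and stop before the earlier of the RefSeq and GENCODE gene starts. Capitals mark each match to GAANNTTC or TTCNNGAA, a pair of inverted heat shock element units, where each motif is its own reverse complement. HSPA6 is shown for chr1:161524290-161524539, HSPA1A for chr6:31815293-31815463 and HSPA1B for chr6:31827488-31827734.
HSPA6: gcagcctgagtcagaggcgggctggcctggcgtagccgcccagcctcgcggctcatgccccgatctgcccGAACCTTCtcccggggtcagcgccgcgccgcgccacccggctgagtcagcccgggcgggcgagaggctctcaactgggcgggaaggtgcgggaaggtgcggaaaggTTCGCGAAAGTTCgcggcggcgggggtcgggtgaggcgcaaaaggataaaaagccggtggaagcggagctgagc
HSPA1A: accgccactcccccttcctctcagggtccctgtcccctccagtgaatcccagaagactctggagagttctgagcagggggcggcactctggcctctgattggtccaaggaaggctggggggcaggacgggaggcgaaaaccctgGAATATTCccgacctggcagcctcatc
HSPA1B: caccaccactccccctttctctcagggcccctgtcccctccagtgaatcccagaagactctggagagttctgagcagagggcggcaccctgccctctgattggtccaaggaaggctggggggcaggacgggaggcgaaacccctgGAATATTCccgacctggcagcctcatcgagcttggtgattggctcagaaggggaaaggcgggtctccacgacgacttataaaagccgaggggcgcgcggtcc

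The HSPA6 promoter held 3 pairs within 250 bases of the RefSeq start, beginning 180, 74 and 69 bases upstream, and the last 2 overlapped to form 1 triple (TTCNNGAANNTTC). HSPA1A and HSPA1B held 1 pair each, 106 and 105 bases upstream of the RefSeq start. That start lies 79 bases past the end of the printed HSPA1A window and 3 bases past that of HSPA1B, so from the GENCODE start, where those windows stop, the pairs begin 27 and 102 bases upstream. Over 35116 RefSeq promoters of the same length, 11.58% held either pair and 0.4414% held either triple (GAANNTTCNNGAA or TTCNNGAANNTTC). A match describes the letters of the window and does not show that a factor bound there.

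The introduced gene was read first, as a check of the labels. ARID1A (ENSG00000117713) was at 52325, 42639 and 114749 CPM in V2084D replicates 1 to 3, and at 5688, 9277 and 62907 CPM in the WT replicates. CPM are counts per 1000000 after TMM scaling, and KO libraries had 134, 193 and 117. All 6 libraries therefore carried the introduced transcript, at different amounts. WT replicate 3 had 8.41 times the mean of WT replicates 1 and 2, and V2084D replicate 2 had 0.678 times the level of WT replicate 3, so the groups overlapped. The log2 difference, V2084D minus WT, was 1.43 (SE 0.647, edgeR quasi-likelihood test with Benjamini-Hochberg adjustment over all genes tested, adjusted p = 1). Without WT replicate 3 the difference was 3.23 (adjusted p = 0.00136). The count table does not tell the mutant from the wild-type transcript. STUB1 was at 267, 177 and 252 CPM in V2084D against 328, 264 and 185 CPM in WT, which overlapped, with a difference of -0.16 (SE 0.232, edgeR adjusted p = 1).

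Total counts ran from 41304466 to 55539529 over the 6 libraries, and ARID1A alone took 0.573 to 10.6% of them. Over the genes tested, with the uneven ARID1A included, replicates of a group differed by 58.2 to 215 times the variance of counting. The common biological coefficient of variation was 27.4%. For genes with many counts, spread between libraries and not depth therefore set the precision. On the first principal component, with 29.9% of the variance, WT replicate 1 stood at -64.4, WT replicate 3 at 47.0 and V2084D replicate 2 at 44.4, so the component did not separate the groups. Among the 18 markers of 293 cells, 16 averaged 1 CPM or more. Of 10 blood and endothelial markers 3 averaged 1 CPM or more, the list summed to 8.66 to 17.6 CPM in V2084D and 12.7 to 17.4 CPM in WT, and CD3E and PTPRC, the defining T cell and leukocyte markers, were at 0.

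V2084D libraries had far more transcript of the stress-inducible HSP70 genes than WT libraries, and few other genes passed the test. With edgeR, 10 of 21110 genes (0.0474%) passed an adjusted p of 0.05, of which 7 (0.0332%) rose and 3 (0.0142%) fell, and 369 (1.75%) had an unadjusted p under 0.05, 175 (0.829%) with a positive and 194 (0.919%) with a negative difference. The 7 genes that rose were HSPA6, HSPA7, HSPA1A, HSPA1B and 3 noncoding transcripts. The median difference over all genes tested was -0.0047, and 49.3% of them were positive. In RNA from a whole culture, a change in every cell and a change in the share of cells that express a gene cannot be told apart. The count of 10 became 4 without WT replicate 2, 17 with DESeq2, and 0 with all 18 libraries of 293T in 1 edgeR fit, where 468 genes had an unadjusted p under 0.05.

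**Figure D1:**
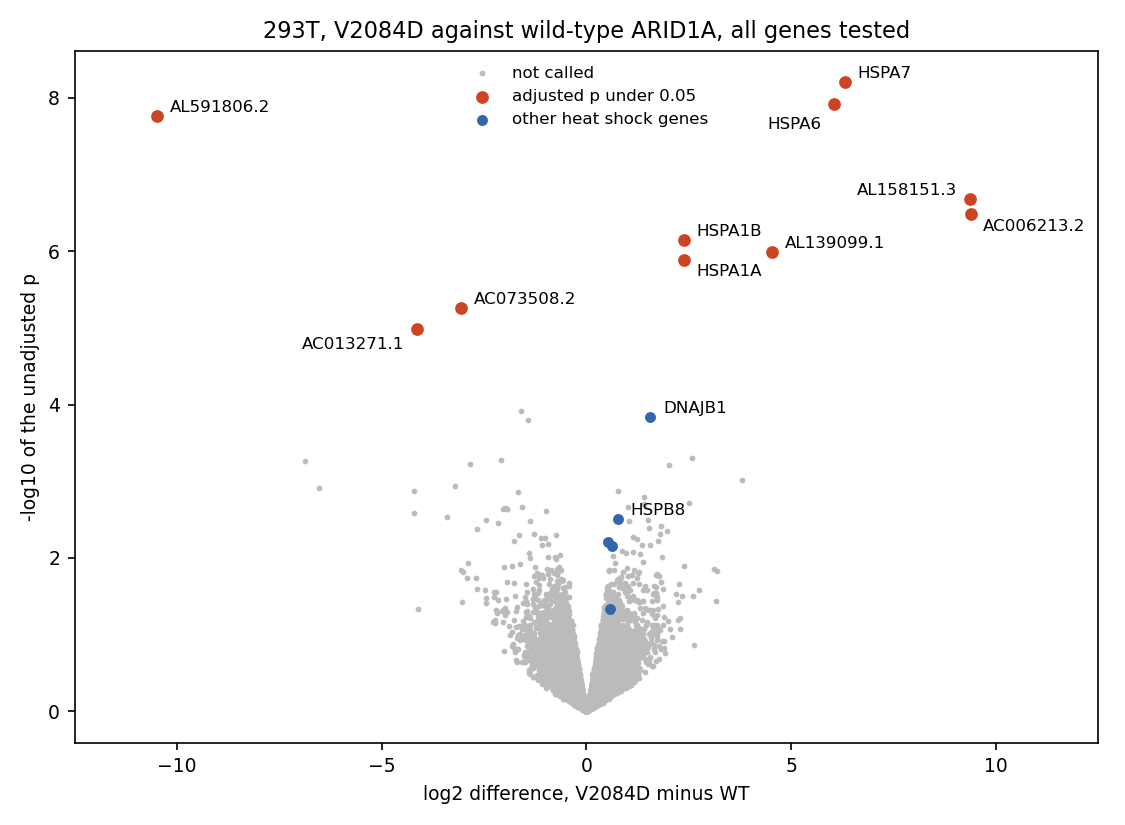
Each point is 1 of the 21110 genes tested, with the log2 difference of V2084D minus WT on the x axis and the -log10 of its unadjusted p on the y axis. The 10 genes with an adjusted p under 0.05 are red and named, and 5 other heat shock genes are blue; DNAJB1 is the highest of the blue points.

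HSPA6 (ENSG00000173110, chr1:161524540-161526910), an HSP70 that is nearly silent without stress, was at 143, 68.4 and 160 CPM in the V2084D replicates. It was at 1.12, 0.937 and 3.64 CPM in the WT replicates, and the KO libraries had 0.579 to 0.896 CPM. The lowest V2084D library was thus 18.8 times the highest WT library. HSPA6 rose by 6.04 (SE 0.511, edgeR adjusted p = 0.000123) on the log2 scale. Its call ended with robust estimates of the spread (edgeR adjusted p = 0.229) and in the fit of all 18 libraries (adjusted p = 1), with the same difference of 6.04.

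HSPA7 (chr1:161606291-161608217) is an unprocessed pseudogene close to HSPA6 in sequence and position. Its levels were 15, 7.26 and 21.2 CPM in V2084D against 0.151, 0.0867 and 0.320 CPM in WT, with raw WT counts of 7, 5 and 14. HSPA7 rose by 6.31 (SE 0.507, edgeR adjusted p = 0.000123), but how reads shared by this pair were assigned is not given in the sources used here. The gene passed the count minimum through its V2084D libraries.

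HSPA1A (chr6:31815464-31817946) and HSPA1B (chr6:31827735-31830255) encode the main inducible HSP70 and are near-identical neighbours. HSPA1A was at 1727, 1021 and 2789 CPM in V2084D and at 349, 294 and 416 CPM in WT. HSPA1B was at 3026, 1893 and 4780 CPM in V2084D and at 622, 507 and 741 CPM in WT. In both genes every V2084D library lay above every WT library, by at least 2.45 times for HSPA1A and 2.55 times for HSPA1B. HSPA1A rose by 2.39 (SE 0.296, edgeR adjusted p = 0.0034) and HSPA1B by 2.38 (SE 0.280, edgeR adjusted p = 0.00255).

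The reads that near-identical copies share make these 4 calls less than 4 separate observations. With the counts of HSPA6 and HSPA7 summed, the pair rose by 6.07 (edgeR adjusted p = 0.000183), and HSPA1A with HSPA1B rose by 2.38 (edgeR adjusted p = 0.0031), with 8 genes called in all. This summing was added after the values were seen. Without WT replicate 2 the calls of HSPA1A and HSPA1B ended, at adjusted p = 0.139 and 0.113 in edgeR, while their differences were 2.27 and 2.25.

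DNAJB1, the HSP40 that hands substrates to inducible HSP70, had 275, 206 and 355 CPM in V2084D. In WT it had 70.5, 65.1 and 147 CPM, and the groups did not overlap, as for 6.09% of all genes tested. The difference was 1.57 (SE 0.303) but did not pass (edgeR adjusted p = 0.258). Leaving out WT replicate 3, whose DNAJB1 level was 2.17 times the mean of the other 2 WT libraries, gave 2.05 (edgeR adjusted p = 0.00229), and DESeq2 on all 6 libraries called the gene (adjusted p = 0.00033).

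**Figure D2:**
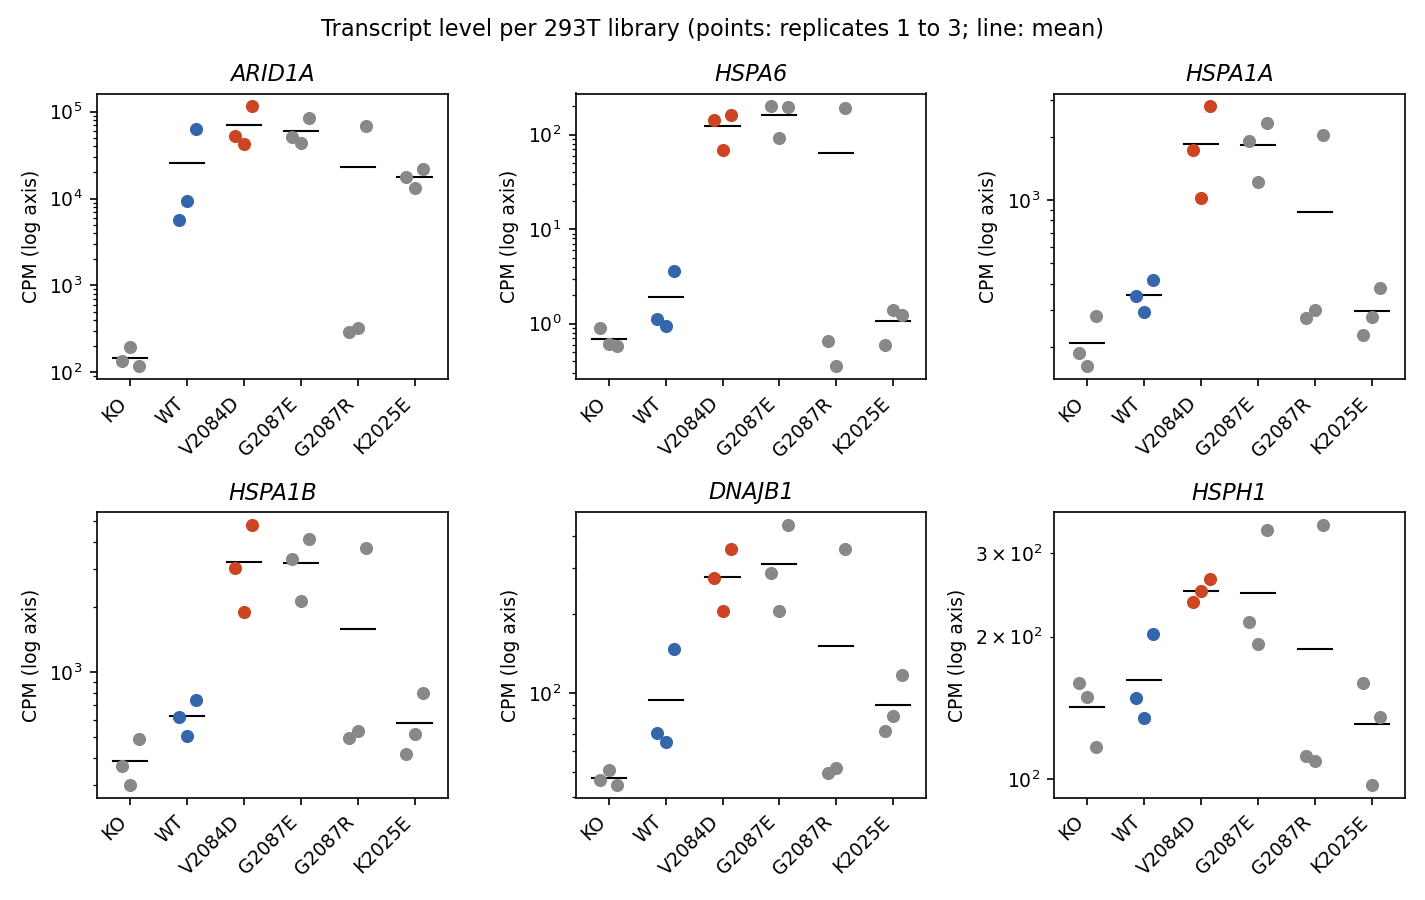
Transcript levels in CPM on a log axis for ARID1A and 5 heat shock genes in all 18 libraries of 293T, with points for replicates 1 to 3 of each group and a line for the group mean. V2084D (red) and G2087E stand above WT (blue) in all 5 heat shock genes by their means, and G2087R replicate 3 stands apart from replicates 1 and 2 of its group.

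The rest of the HSP70 system differed far less. Of 17 HSP70 family genes, all tested, 4 rose and 0 fell, 13 had a positive difference, and the median was 0.24 (over all genes tested 0.0332% rose and 49.3% were positive). HSPH1 (HSP110), which exchanges the nucleotide of HSP70, was at 236, 250 and 264 CPM in V2084D and at 148, 135 and 203 CPM in WT, a difference of 0.63 (SE 0.200, edgeR adjusted p = 1). HSPA8, the constitutive HSP70 of the cytosol, was at 2160, 1900 and 2435 CPM in V2084D. In WT it was at 1419, 1356 and 2481 CPM, so that WT replicate 3 was the highest of the 6 libraries, and the difference was 0.31 (SE 0.221). HSPA1L, a close relative of HSPA1A that is typical of testis, had a difference of 0.93 (SE 0.434) at levels of 0.659 to 2.51 CPM. HSPA5 and HYOU1, the HSP70 proteins of the endoplasmic reticulum, had 0.05 and -0.02, and HSPA9, that of mitochondria, had 0.10. The lowest value was that of HSPA12B, -0.55 (SE 0.336). None of the genes with values in these sentences passed the test.

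Genes that HSF1 induces were read as a wider list of 30 that includes the same 4 HSP70 genes. In this list 4 rose, 0 fell and 8 had an unadjusted p under 0.05 with a positive difference (background 0.829%), and 25 of the 30, or 83.3%, were positive. The list was chosen with earlier results of these data known, so its direction is not independent evidence. HSP90AA1, the stress-inducible HSP90, was at 3469, 3741 and 3304 CPM in V2084D and 2636, 1958 and 2684 CPM in WT, a gap with no overlap and a difference of 0.53 (SE 0.166). HSPB8, a small heat shock protein that works with BAG3 in selective autophagy, had 12.3, 11.3 and 12.4 CPM against 7.18, 6.59 and 7.33 CPM, also without overlap, and differed by 0.77 (SE 0.217). BAG3 itself had 69.9, 44.7 and 87.7 CPM against 49.3, 53.9 and 33.2 CPM, which overlapped, and differed by 0.57 (SE 0.261). HSP90AA1, HSPB8 and BAG3 each had an edgeR adjusted p = 1.

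Many textbook HSF1 targets lay near 0. The mitochondrial chaperonins HSPD1 and HSPE1 had 0.20 and -0.05, HSP90AB1, the constitutive HSP90, had 0.11, and the small heat shock protein HSPB1 had -0.14. The median of the 30 genes was 0.14. Without WT replicate 2 it was 0.05 with 16 of 30 positive, and without WT replicate 3 it was 0.30 with 25 of 30 positive. The median member of the list was at 0.14, 0.14 and 0.15 above the mean of the 6 libraries in the V2084D replicates, and at -0.04, -0.37 and 0.05 in the WT replicates.

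Heat shock genes differed in how far they followed the amount of ARID1A transcript within a group. Within WT, replicate 3 had the most ARID1A and had 3.53 times the HSPA6, 2.17 times the DNAJB1 and 1.79 times the HSPA8 of the mean of the other 2. For HSPH1, HSPA1A, HSPA1B, HSP90AA1 and HSPB8 this ratio was 1.43, 1.30, 1.31, 1.17 and 1.06, and for BAG3 it was 0.643. The HSPA6 level of WT replicate 3 was below that of V2084D replicate 2, which had less ARID1A, but this sets 1 library against 1. Within V2084D, ARID1A was highest in replicate 3 and lowest in replicate 2. HSPA6, HSPA1A, HSPA1B, DNAJB1, HSPA8, HSPB8 and BAG3 had the same order there, and HSP90AA1 had the reverse. HSPH1 followed neither order, as it was lowest in replicate 1 and highest in replicate 3. With the log2 CPM of ARID1A as a covariate, HSPA6 differed by 5.07 (edgeR adjusted p = 0.000272) and HSPA7 by 5.24 (adjusted p = 0.00117), both under the threshold. The covariate ended the calls of HSPA1A (1.89, adjusted p = 0.241) and HSPA1B (1.90, adjusted p = 0.167) in edgeR. WT replicates 1 and 2, at 5688 and 9277 CPM of ARID1A, lay below the V2084D range of 42639 to 114749 CPM. Only WT replicate 3 lay within it, so the covariate fit cannot separate the form of ARID1A from its amount. With 3 libraries a group and ARID1A uneven within WT, the part of the amount in these differences was not tested further.

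HSPA6 levels in the other 293T groups, given as a description, were either high or low. G2087E libraries had 199, 92.8 and 196 CPM of HSPA6 with 43783 to 84564 CPM of ARID1A. K2025E libraries had 0.591, 1.39 and 1.25 CPM of HSPA6, near the KO level, with 13365 to 21646 CPM of ARID1A. The libraries labelled G2087R were split: replicates 1 and 2 had 0.663 and 0.354 CPM of HSPA6 with 291 and 323 CPM of ARID1A, near the KO level, and replicate 3 had 193 CPM with 68182 CPM of ARID1A. In HSPA6, 7 of the 18 libraries lay at 68.4 CPM or above and 11 at 3.64 CPM or below, with none between. HSPA8 showed no such split, with 2001 CPM in K2025E replicate 3 and 2481 CPM in WT replicate 3 against 1909 and 1821 CPM in G2087E replicates 1 and 2. WT replicate 3, at 62907 CPM of ARID1A, was in the low set, and V2084D replicate 2, at 42639 CPM, was in the high set. Whether the form or the amount of ARID1A divides the sets was not tested.

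**Figure D3:**
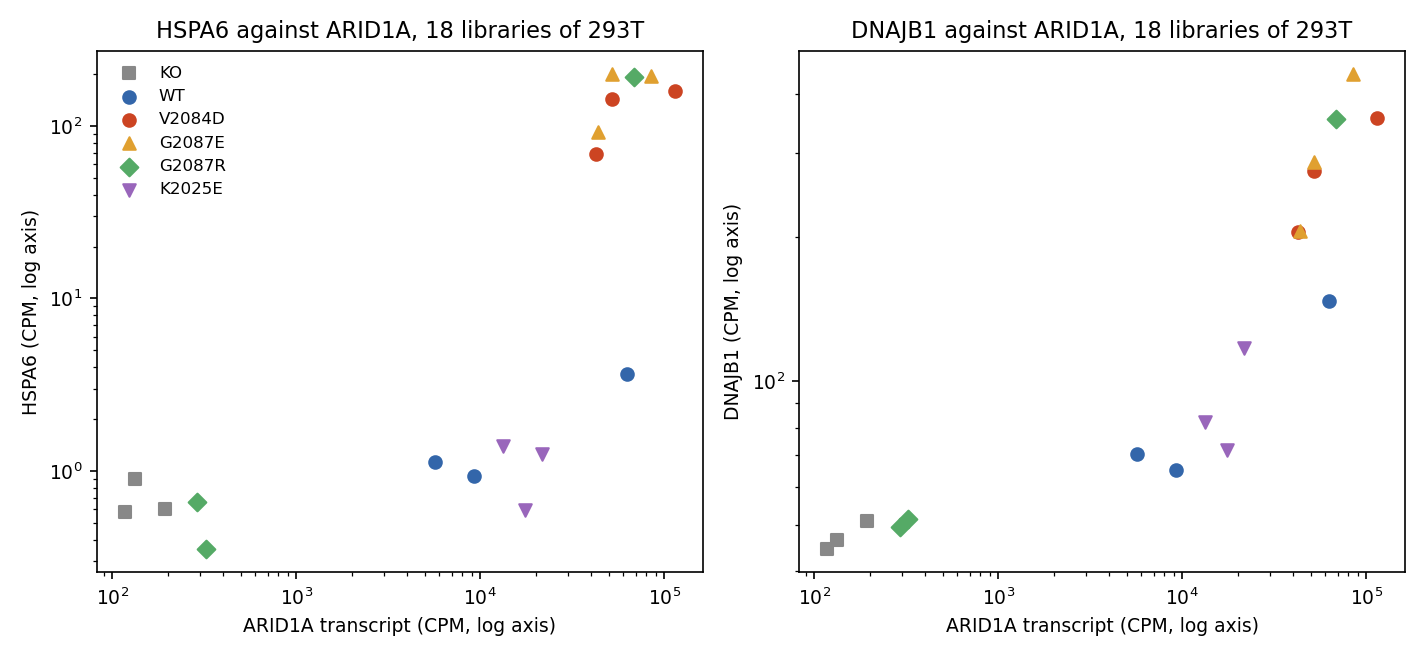
HSPA6 (left) and DNAJB1 (right) in CPM against ARID1A in CPM, both on log axes, for the 18 libraries of 293T, with 1 point per library and a symbol per group. The only WT library within the ARID1A range of V2084D, at 62907 CPM, has 3.64 CPM of HSPA6, below the mutant libraries of similar ARID1A. Its 147 CPM of DNAJB1 lies closer to theirs.

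The other 6 genes called were transcripts with low counts, and 5 of them, all but AL158151.3, overlap other genes of the table. Because the strand setting and the rule for shared reads are not given in the sources used here, the reads of those 5 cannot be told apart from those of the overlapping genes. AL158151.3, a lincRNA on chromosome 9, had 91, 85 and 61 counts in the V2084D replicates and 0 in every WT library. It was at least 85.2-fold higher (edgeR adjusted p = 0.00111). The floor, here and for the bounds below, was 3 counts over all libraries of the zero group pooled. It also had 30 to 77 counts in KO and 0 in G2087R replicate 3, so a count of 0 was not particular to WT libraries. AC006213.2, a lincRNA that overlaps the zinc finger gene ZNF404 on chromosome 19, had 84, 100 and 54 counts against 0 in every WT library. It was at least 86.3-fold higher (edgeR adjusted p = 0.00139), while KO libraries had 79, 0 and 0.

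AL139099.1, annotated as antisense to the glycosylation enzyme gene MGAT2 on chromosome 14, had 259, 210 and 57 counts in V2084D. Its WT counts were 7, 9 and 8, and it rose by 4.54 (SE 0.550, edgeR adjusted p = 0.00307). MGAT2 itself differed by -0.05 (SE 0.196). The call ended without WT replicate 2 (adjusted p = 0.138).

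Among the 3 genes that fell, AL591806.2 is a read-through span on chromosome 1 over F11R, a tight junction adhesion gene, and TSTD1. It had 0 counts in every V2084D library and 172, 139 and 224 in WT, and was at least 172-fold lower (edgeR adjusted p = 0.000123). KO libraries had 4 counts each, and F11R differed by -0.05 (SE 0.206). AC073508.2 spans the BAF subunit gene SMARCE1 and the keratin gene KRT222 on chromosome 17. It had 30, 11 and 11 counts in V2084D against 102, 215 and 151 in WT and fell by 3.07 (SE 0.431, edgeR adjusted p = 0.0129). SMARCE1 differed by -0.02 (SE 0.186) at 123 CPM in V2084D and 125 CPM in WT. AC013271.1, over LIMS3 on chromosome 2, had 2, 2 and 5 counts against 67, 50 and 56 and fell by 4.14 (SE 0.616, edgeR adjusted p = 0.0216).

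These counts also varied widely within other groups of 293T. AL591806.2 had 0, 124 and 4 counts in the G2087E replicates, AC073508.2 had 3, 119 and 18 in KO, and AL139099.1 had 12, 145 and 302 in G2087E. The 5 transcripts other than AC073508.2 passed the count minimum through the libraries of 1 group only, so a difference between the groups was built into their selection. The calls of AC073508.2 and AC013271.1 also ended without V2084D replicate 2 (edgeR adjusted p = 0.191 and 0.196).

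The next named protein-coding genes were chosen by smallest p among those whose libraries did not overlap, a trait of 6.09% of all genes tested. Their adjusted p was above the threshold, and none of those that follow is a call. CLCN4, a chloride and proton exchanger of endosomes, was at 2.46, 2.49 and 4.25 CPM in V2084D and 1.12, 0.815 and 1.53 CPM in WT, with a difference of 1.41 (SE 0.361, edgeR adjusted p = 1). In the other groups CLCN4 was at 2.78 to 3.94 CPM in G2087E and 3.85 CPM in G2087R replicate 3, and at 1.07 to 1.62 CPM in K2025E, KO and G2087R replicates 1 and 2. Its libraries thus fell into the same high and low sets as those of HSPA6, with a gap of 1.62 to 2.46 CPM between the sets. For the 6 libraries of V2084D and WT this was fixed by the choice of genes without overlap. TEN1, a subunit of the telomere-capping CST complex, had 2.80, 3.21 and 3.05 CPM against 1.19, 0.677 and 1.99 CPM, a difference of 1.24 (SE 0.379). Within other groups TEN1 ran from 0.694 to 3.36 CPM in KO and from 2.70 to 11.8 CPM in K2025E. PCDHGC4, a gamma protocadherin of cell adhesion, differed by 0.87 (SE 0.283).

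Lower values without a call included that of LRRC8E, a subunit of volume-regulated anion channels. LRRC8E had 3.89, 2.82 and 5.26 CPM in V2084D and 12.8, 11 and 8.72 CPM in WT, a difference of -1.43 (SE 0.280, edgeR adjusted p = 0.26), and DESeq2 called it (adjusted p = 0.00103). LRRC8E also had 1.96 CPM in G2087E replicate 2 and 11.5 and 10.3 CPM in the other 2 replicates of that group. METTL7A, a methyltransferase-like protein of lipid droplets, differed by -0.74 (SE 0.221). RAB3A, a small GTPase of vesicle release, differed by -1.11 (SE 0.338), and B3GNT4, a glycosyltransferase, by -1.003 (SE 0.306).

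Other stress pathways showed no called gene. Of 30 targets of ATF4, the factor of the integrated stress response, 0 were called and 20 were positive, with a median of 0.05 against -0.0047 over all genes. The growth factor GDF15 had 11.4, 5.38 and 15.2 CPM in V2084D and 9.38, 5.46 and 5.31 CPM in WT, a difference of 0.67 (SE 0.348), and DDIT3 (CHOP) differed by 0.47 (SE 0.253). SLC7A11, the cystine importer, had 34.1, 52.6 and 35.3 CPM against 24.1, 29.1 and 31.0 CPM, which did not overlap, with a difference of 0.54 (SE 0.224, edgeR adjusted p = 1). Genes of endoplasmic reticulum stress gave 8 positive of 23 with a median of -0.03. The 31 proteasome genes gave 4 positive with a median of -0.13, and 24 genes of ubiquitin and autophagy gave 8 positive with a median of -0.08.

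Lists of the chromatin complexes that ARID1A belongs to or opposes had medians near 0, with single members away from it. The 28 BAF subunits, ARID1A included, gave 15 positive, 0 called and a median of 0.0013. ARID1B, the paralogue that can take the place of ARID1A in the complex, had 85.4, 95.1 and 107 CPM in V2084D and 51.8, 91.4 and 71.4 CPM in WT, a difference of 0.43 (SE 0.225). PBRM1, which defines the PBAF form, had 63.4, 80.3 and 60.8 CPM against 49.8, 50.3 and 53.4 CPM, a difference of 0.42 (SE 0.196). ACTL6B, the actin-related subunit of the neuronal BAF complex, had the lowest value of the list, -2.03 (SE 0.933, edgeR adjusted p = 1), at 0.0604, 0 and 0.215 CPM against 0.432, 0.364 and 0.366 CPM. Of 28 Polycomb subunits, which silence developmental genes, 18 were positive and 0 were called, with a median of 0.06. BMI1 was the Polycomb member with the smallest p, at 87.6, 109 and 87.8 CPM against 75.8, 63.0 and 54.3 CPM (0.56, SE 0.203, edgeR adjusted p = 1).

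HOX genes, Polycomb targets that give cells their place along the head-to-tail axis, gave 35 positive of 38 tested (39 listed), 0 called and a median of 0.21. HOXA4 was at 13.5, 10.4 and 18.1 CPM in V2084D and 10.2, 10.2 and 7.07 CPM in WT, and HOXC10 at 40.0, 34.1 and 39.4 CPM against 31.1, 27.3 and 23.3 CPM. The low values in WT came mostly from replicate 3, where the median HOX gene was 0.44 below the mean of the 6 libraries (-0.44), against 0.03 and 0.05 in WT replicates 1 and 2. Without WT replicate 3 the HOX median was 0.05.

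Genes of G2 and mitosis gave 5 positive of 30, 0 called and a median of -0.23. PTTG1 (securin) keeps sister chromatids from parting before anaphase. It was at 67.6, 61.0 and 63.9 CPM in V2084D and 104, 69.8 and 123 CPM in WT (-0.62, SE 0.222). The kinase AURKA was at 126, 129 and 118 CPM against 151, 129 and 282 CPM (-0.59, SE 0.259). WT replicate 3 was again the library apart, with the median gene at 0.43, and the median difference without it was -0.07. Genes of G1/S and DNA replication gave 13 positive of 30 and a median of -0.03.

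Protein synthesis and respiration lists differed in 1 direction by small amounts, with WT replicate 1 and V2084D replicate 2 at opposite ends. In V2084D replicate 2 the median gene was at -0.34 for cytosolic ribosomal proteins and -0.26 for the nuclear-encoded respiratory chain. For transcripts of mitochondrial DNA it was at 0.32 in that library. All 36 cytosolic ribosomal protein genes had a negative difference, with 0 called and a median of -0.26. Without WT replicate 1, in which the median gene was 0.40 above the mean of the 6 libraries, the median was -0.10. The 34 nuclear-encoded respiratory chain genes gave 1 positive and a median of -0.21, or -0.09 without that library. The 13 transcripts of mitochondrial DNA were all positive with a median of 0.24, or 0.10 without that library, in which they were at -0.31. Hypoxia and glycolysis genes gave 1 positive of 27 and a median of -0.15. No cause of these library patterns was tested.

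**Figure D4:**
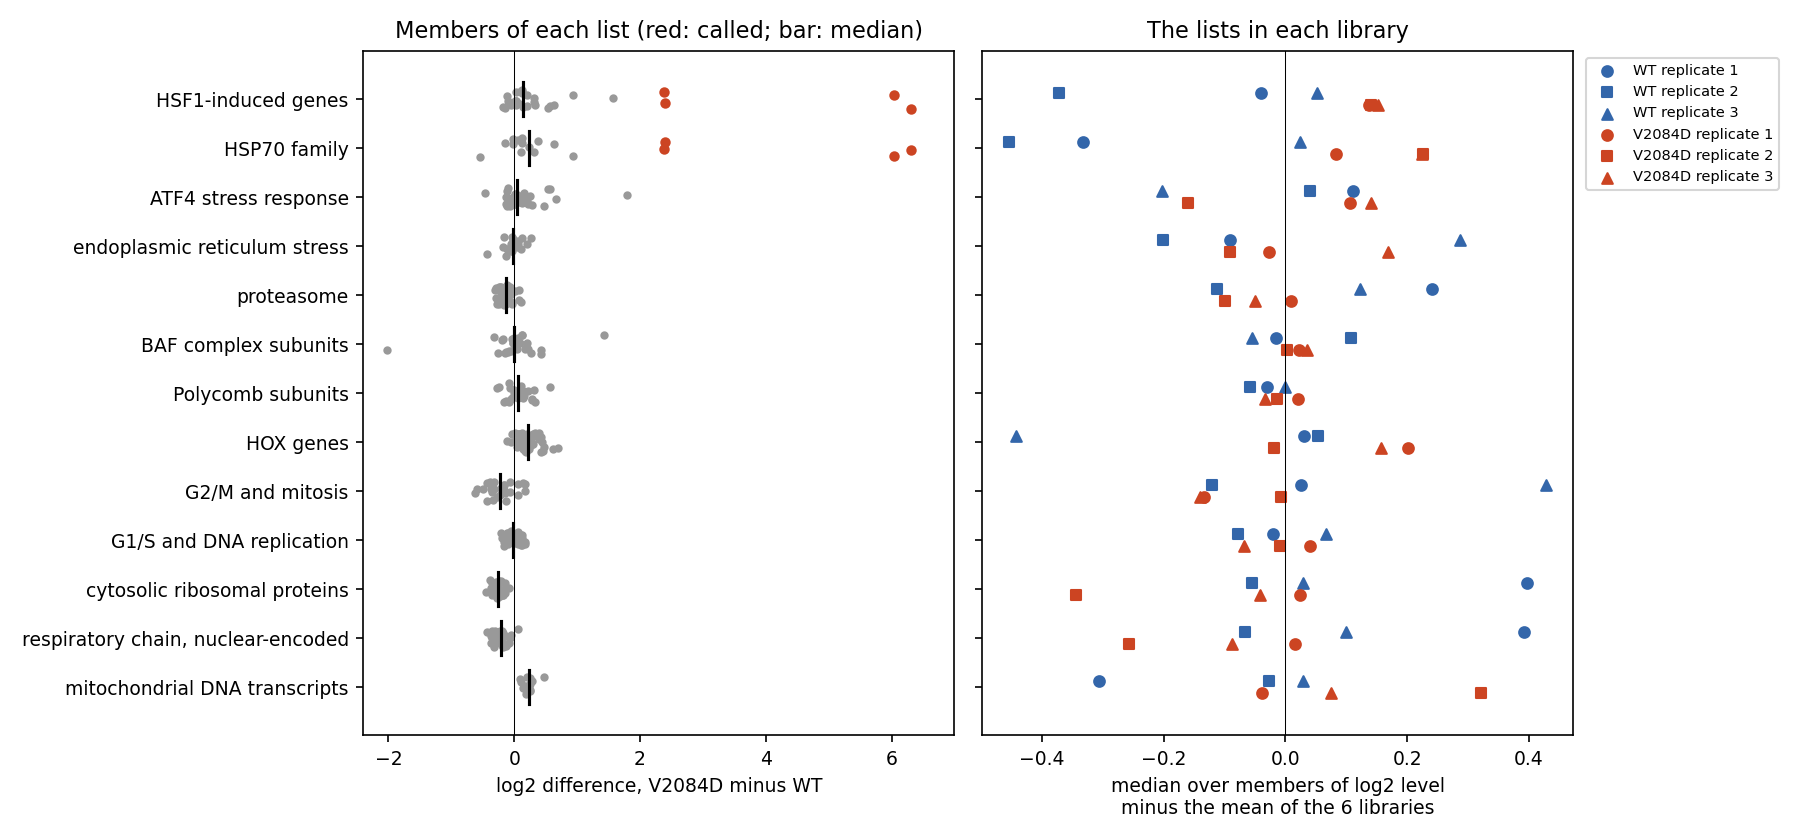
Left, log2 differences of V2084D minus WT for the members of 13 gene lists, with called genes in red and the list median as a bar; right, the median member of each list in each of the 6 libraries, as log2 level minus the mean of the 6. Only the HSF1-induced and HSP70 lists hold called genes, and the HOX and G2/M lists are set apart by WT replicate 3. In the ribosomal and respiratory lists WT replicate 1 and V2084D replicate 2 stand at opposite ends.

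The same amino acid change was set against WT in the second line, and the difference between the lines was tested as an interaction over 12 libraries. In the libraries labelled Huh7 several heat shock genes stood lower in V2084D than in WT. HSPA1A was at 58.1, 47.9 and 55.4 CPM in V2084D and 573, 541 and 610 CPM in WT of that line, and HSPA8 at 278, 275 and 272 CPM against 2021, 2016 and 2013 CPM. CPM of the lines were scaled separately and are not compared as levels. Of 23203 genes tested, 2774 (12%) had a different response between the lines, and 1242 (5.35%) had the higher difference in 293T. Leaving out single Huh7-labelled libraries took the count to between 1762 and 1894, and leaving out 293T V2084D replicate 1 took it to 1893. Without any other single 293T library it was 2512 to 3569. Among the 30 HSF1-induced genes 19 were higher in 293T and 0 lower, with a median interaction of 1.20 against -0.04 over all genes, and among the 17 HSP70 genes 9 were higher and 0 lower, with a median of 1.12.

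HSPA1A had an interaction of 5.79 (SE 0.385, edgeR adjusted p = 1.7e-06), made up of 2.39 in 293T and -3.41 in the Huh7-labelled libraries. HSPA8 had 3.17 (SE 0.267, edgeR adjusted p = 1.3e-05), of which -2.86 lay in the Huh7-labelled libraries. For HSPA6 the interaction of 6.70 (SE 0.655, edgeR adjusted p = 4.6e-05) came almost wholly from 293T, since HSPA6 was at 0.465 to 0.938 CPM in all 6 libraries of the other line. HSPB8 was an exception, with an interaction of -0.08 (SE 0.313, edgeR adjusted p = 0.908) and values of 10.9, 7.39 and 5.54 CPM against 3.73, 4.36 and 5.17 CPM in the Huh7-labelled libraries.

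**Figure D5:**
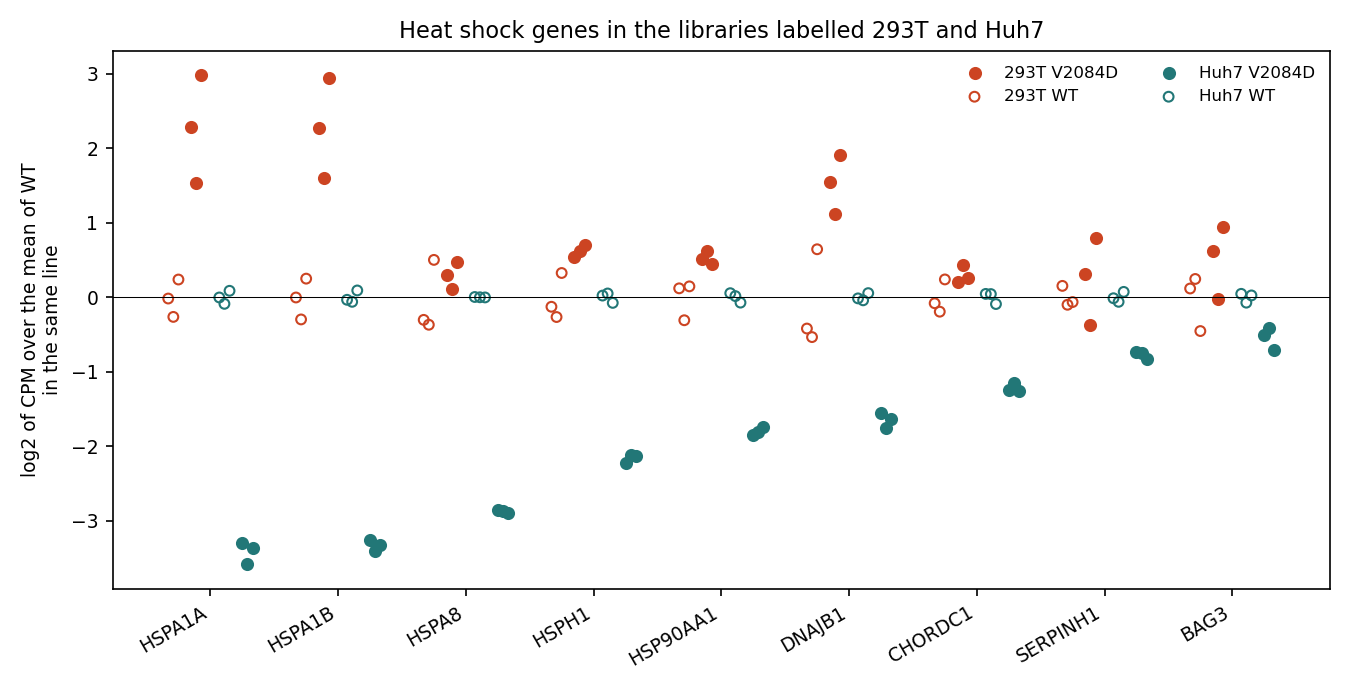
Log2 of CPM over the WT mean of the same line for 9 heat shock genes, with filled points for V2084D and open points for WT, red for 293T and green for the libraries labelled Huh7. All V2084D points of the Huh7-labelled libraries lie below their WT points in the 9 genes, while in 293T the V2084D points lie above WT for HSPA1A, HSPA1B, HSPH1, HSP90AA1 and DNAJB1 and overlap WT for the other 4.

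The identity of the second line limits that comparison. Of 20 liver markers 2 averaged 1 CPM or more in its libraries and 3 in 293T, albumin (ALB) was at 0.489 CPM, and 15 of the 18 markers of 293 cells reached 1 CPM, so the label Huh7 is not borne out by these genes. ARID1A in that line was at 216 to 271 CPM in V2084D and 342 to 400 CPM in WT, with no library of knockout cells alone beside them. How much of it came from the introduced gene is therefore not known here, and the line and its amount of introduced ARID1A cannot be told apart.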

How the data were processed

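RNA was extracted from cultured cells with Trizol and a column kit and sequenced as NEBNext Ultra II libraries, per the labels' protocols. The deposited values are raw read counts by gene, whole numbers that the authors made on GRCh38, and the submitters' processing notes name edgeR without a version. The aligner, counter, annotation and strand setting are not given in the sources used here. Every column matched a sample.

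WT and V2084D libraries were fitted with edgeR 4.0.16 in R 4.3.3 (TMM, quasi-likelihood F test, Benjamini-Hochberg adjustment, threshold 0.05). The SE is the absolute log2 difference over the square root of F. The interaction used the same settings on 12 libraries. Levels are TMM-scaled CPM over the 18 libraries of 293T or the 9 of Huh7. DESeq2 1.42.0 was an alternative. Positions come from GENCODE 29, which placed 98.2% of genes. The pipeline was tested on simulated data.

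Members and lists were chosen with earlier results of these data known. Genes named are ARID1A and STUB1, every called gene, the 12 named protein-coding genes per direction with the smallest p, no overlap and mean log2 CPM of at least 1, members of the HSP70 and HSF1-induced lists, and up to 4 members per other list. Overlapping host genes (MGAT2, F11R, SMARCE1) were named after their values were seen. No set test was run, and an exact permutation test of 3 against 3 libraries cannot give p below 0.1.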

Additional observations from a re-analysis of the deposited data

Results flagged for a closer look

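For 11 heat shock genes the response to V2084D differed between the lines by the interaction test (edgeR, Benjamini-Hochberg adjustment over 23203 genes). The log2 difference, 293T minus the libraries labelled Huh7, was 6.70 for HSPA6, 6.91 for HSPA7, 5.79 for HSPA1A and 5.69 for HSPA1B, with adjusted p from 1.2e-06 to 0.000119. It was 3.20 for DNAJB1 (adjusted p = 0.000183), 3.17 for HSPA8, 2.77 for HSPH1, 2.32 for HSP90AA1 and 1.51 for CHORDC1, a cochaperone of HSP90 (adjusted p = 0.000219). SERPINH1, the collagen chaperone HSP47, had 1.08 (adjusted p = 0.0264) and BAG3 had 1.10 (adjusted p = 0.0312). SERPINH1 was at 228, 143 and 319 CPM in V2084D and 205, 172 and 176 CPM in WT of 293T, which overlapped, and at 77.6 to 82.8 CPM against 133 to 146 CPM in the Huh7-labelled libraries. The calls of SERPINH1 and BAG3 ended when single libraries were left out, at adjusted p up to 0.0623 for SERPINH1 and 0.0737 for BAG3, and that of BAG3 also with the replicate block (adjusted p = 0.0894), while the other 9 were called under all 19 alternatives run.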

How the results depend on the processing

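The count of 10 genes called in 293T was 10 with RLE size factors, 8 with no filter, 9 with at least 1 CPM in 3 libraries, 10 with ARID1A left out, 9 with robust estimates, 8 with ARID1A as covariate (6 shared with the 10) and 17 with DESeq2, which included all 10. With all 18 libraries in 1 fit edgeR called 0, with 468 genes at an unadjusted p under 0.05. In that fit the HSPA6 difference was 6.04 with an SE of 1.48 in place of 0.511, since the spread of the other groups entered. Leaving out 1 library gave 4 to 12 calls, with 4 without WT replicate 2 (all among the 10). Robust estimates ended the call of HSPA6 (edgeR adjusted p = 0.229). With the replicate number as a block 15 genes were called, the 10 among them, and DNAJB1 (adjusted p = 0.00758) and ARID1A (2.10, adjusted p = 0.0281) were then called by edgeR. The labels do not state that the replicate number was a shared batch, so the numbers were not taken as pairs. Deviations of libraries with equal numbers correlated at 0.193, -0.0176 and 0.0951, which does not settle whether they were. AC138811.2, a read-through gene at -1.60, was called by DESeq2 (adjusted p = 0.000367) and by edgeR without V2084D replicate 2 (adjusted p = 0.014). Signs turned for 4 genes that were not called. STUB1 was 0.0036 without V2084D replicate 2, 0.049 without WT replicate 1 and 0.22 with ARID1A as covariate, and ran from -0.35 to 0.049 with 1 library left out. HSPA8 was -0.17 and HSPA12B 0.27 with that covariate. The HSPB8 interaction was 0.23 without Huh7 V2084D replicate 1 and 0.051 without Huh7 WT replicate 1, within a range of -0.27 to 0.23. The interaction count of 2774 was 2385 with the block, 3924 with DESeq2, 2076 with no filter and 1762 to 3569 with 1 library left out. The 5 lowest came from leaving out Huh7 V2084D replicate 1 (1799) or 2 (1762) and Huh7 WT replicate 1 (1817), 2 (1802) or 3 (1768). Leaving a library out leaves 2 in its group. Genes with few counts are limited by depth: AL139099.1 had 7 to 9 counts in WT.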
